A study of Arabidopsis thaliana with 8 samples.

Results

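Root explants of the Arabidopsis mutant hag1 were compared with explants of the wild type Col (Columbia-0) after 4 days on callus-inducing medium (CIM) and a further 2 days on shoot-inducing medium (SIM). The comparison takes 1 library of each genotype, 2 of the 8 libraries of the study, and covers every locus of the deposited tables. The other 6 libraries are hag1 and Col roots, explants after 4 days on CIM, and explants after 2 weeks on SIM, with 1 library per genotype and stage. All plants were germinated on MS medium with sucrose under long days. The labels name neither the hag1 allele nor the hormones of the media, and they do not say how many explants were pooled for a library. The hag1 library held 6986945 unique reads on 21336 loci and the Col library 7395661 on 21712. Reads were summed over the transcript models of a locus, and 22706 loci had reads in at least 1 of both libraries, out of 25686 in the whole series.

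HAG1, also called GCN5, is a histone acetyltransferase: it adds acetyl groups to histone tails as the catalytic subunit of a coactivator complex, and such marks accompany active genes. In shoot regeneration from roots, auxin-rich CIM makes cells of the root pericycle divide into a callus that resembles a lateral root primordium. Cytokinin-rich SIM then turns part of that callus into shoot meristems.

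The targeted gene had few reads in the mutant. HAG1 (AT3G54610, chr3:20213560-20217653, forward strand) had 16 reads in hag1 and 340 in Col, a log2 ratio of hag1 to Col of -4.23. The exact 95% interval of that ratio, which covers counting error only, ran from -5.05 to -3.51. Reads covered 23.7% of the HAG1 transcript model in hag1 and 91.6% in Col.

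A locus was called higher or lower where the scaled ratio reached 2-fold and either library held at least 50 reads. With 1 library a side there is no replicate check, so no p-value belongs to these ratios. Of 12470 loci with enough reads, 679 (5.45%) were called higher and 1205 (9.66%) lower in hag1. At least 4-fold, 166 were higher and 404 lower, and for 402 and 733 loci the whole counting interval lay beyond 2-fold. The median log2 ratio over these loci was -0.01, with the middle 90% between -1.52 and 1.05. Among called loci 111 of 1884 had several listed models, for which few unique reads were counted. Of the genes named below ACL5, AHK4, ATML1, CAD5, CCOAOMT1, CHIL, EDS1, FLS1, JAZ1, JAZ10, PLT3, SMB and WOX11 have several models. A lower ratio in such tissue can mean fewer cells of a type or less RNA in each cell, and these cannot be told apart here.

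**Figure D1:**
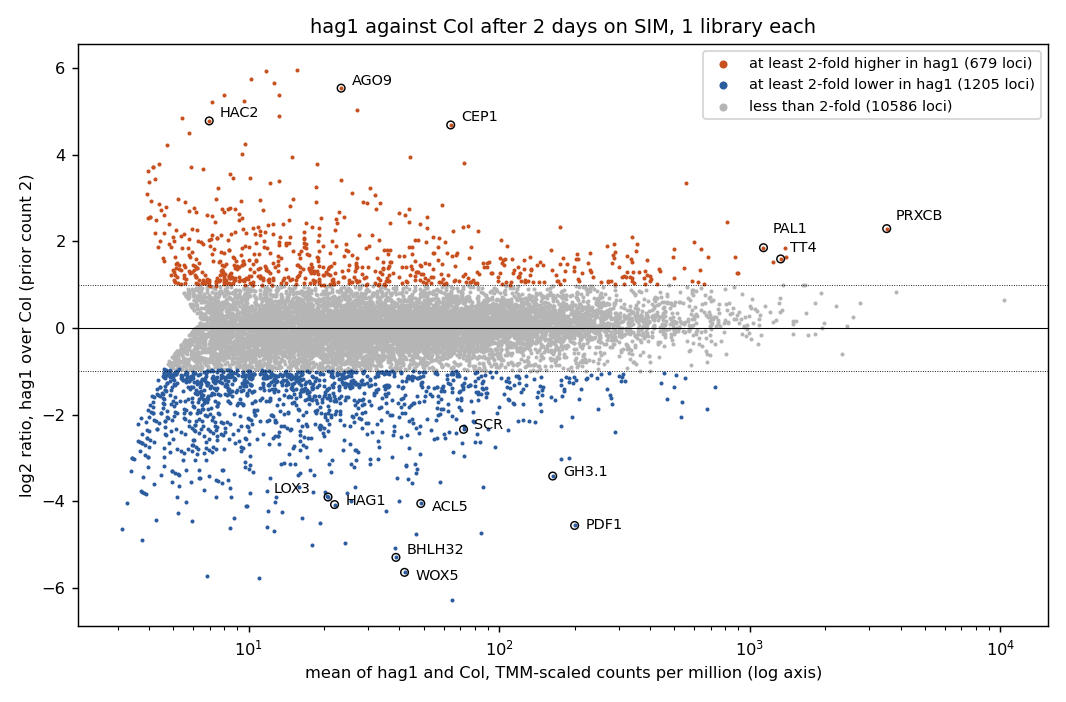
Each point is a locus with at least 50 reads in either library. The horizontal axis is the mean level of hag1 and Col in TMM-scaled CPM on a log axis, and the vertical axis is the log2 ratio of hag1 over Col. Orange marks the 679 loci called higher and blue the 1205 called lower, dotted lines mark 2-fold, and circles mark named genes, with PRXCB, PAL1 and TT4 at the abundant end and WOX5 among the lowest ratios.

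At the other stages, which share no library with this comparison, the same rule called 530 loci higher (4.13%) and 1048 lower (8.18%) in hag1 roots, 608 (4.87%) and 968 (7.75%) on CIM, and 327 (2.68%) and 1396 (11.5%) after 2 weeks on SIM. The overlap with CIM held 209 loci higher at both stages, which is 30.8% of the list at 2 days on SIM and 34.4% of the CIM list. For lower loci it held 452, or 37.5% and 46.7%. With roots 121 higher and 208 lower loci were shared, and with 2 weeks on SIM 112 and 379. At 2 days on SIM alone 370 of the 679 and 482 of the 1205 loci were called in their direction, while 28 and 48 were called at all 4 stages. A locus not called elsewhere may have had too few reads there or a ratio just inside 2-fold. Of the 12470 loci, 11143 had enough reads in roots too, 11861 on CIM and 11198 after 2 weeks on SIM. These counts therefore do not show effects confined to 2 days on SIM.

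Whether the hag1 effect at 2 days on SIM differed from its mean over the other 3 stages was tested with a genotype by stage term in edgeR, in which those stages stand in for replicates. This quasi-likelihood test called 0 of 18710 genes (0.0%) at an adjusted p under 0.05, with 374 higher (2.0%) and 373 lower (1.99%) at an unadjusted p under 0.05. The DESeq2 Wald test, fitted to all 25686 loci, called 21, of which 8 were higher and 13 lower, with 540 at an unadjusted p under 0.05. DESeq2 gave some loci with few reads, such as TEL2 and BUD2, no adjusted p, so fewer loci entered its adjustment. The limma test on log2(RPKM + 1) called 0, with 836 genes at an unadjusted p under 0.05. In simulated data for this test edgeR recovered 2% of 2-fold, 18% of 4-fold, 52% of 8-fold and 82% of 16-fold differences. Whether these shares hold for the measured libraries was not tested. There edgeR left WOX5, TEL2 and BHLH92, described below, uncalled at log2 differences of -4.20, -7.78 and -7.79, each beyond 16-fold. The statements on single genes below are thus measurements on a pair of libraries. Counts per gene list stand beside the 5.45% called higher and 9.66% called lower over all loci, and were not tested against these shares.

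Genes of the root stem cell niche were lower in hag1. Of 15 members 9 had at least 50 reads, and 8 of these 9 fell, with 0 higher and a median log2 ratio of -1.65. WOX5 (AT3G11260, chr3:3527575-3528433, forward strand), the homeobox gene that keeps the quiescent centre, had 10 reads in hag1 and 670 in Col. Its ratio of -5.88 (95% interval -6.95 to -5.0) was the lowest of the group. Per length and depth WOX5 reached 1.91 RPKM in hag1 and 121 RPKM in Col, where it was the most abundant niche gene measured.

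The partners of WOX5 fell less. SCR (AT3G54220, chr3:20070158-20072780, forward strand), a GRAS factor that specifies the endodermis and the quiescent centre, had 169 reads in hag1 and 980 in Col, a ratio of -2.35 (-2.60 to -2.12). JKD (AT5G03150, chr5:745644-749007, forward strand), a zinc finger protein that works with SCR, had 92 and 590 reads in hag1 and Col, a ratio of -2.50 (-2.83 to -2.18). SHR, which activates SCR and acts with it, had 747 reads in hag1 and 1196 in Col and stayed inside 2-fold at -0.50 (-0.63 to -0.36). The counting intervals of the SCR and SHR ratios did not overlap.

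The PLETHORA genes encode AP2 factors that set up the root meristem. PLT1 had 352 reads in hag1 and 1042 in Col (-1.38), PLT2 60 and 218 (-1.68), and BBM 202 and 782 (-1.77). PLT3, a locus with several models, had 226 and 659 (-1.36). WOX14, of the same homeobox family as WOX5, had 39 reads in hag1 and 126 in Col, a ratio of -1.51 (-2.07 to -0.98). The other 6 members had too few reads, among them the root cap gene SMB with 14 reads in hag1 and 1 in Col. FEZ, another root cap regulator, had 26 and 15 reads in hag1 and Col. WOX11, which starts root founder cells, had 23 and 41.

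The niche genes stood closer to Col at the other stages, as the plot of levels by stage shows. Over the members with at least 50 reads at a given stage, 0 of 7 fell in roots, 5 of 11 on CIM and 2 of 4 after 2 weeks on SIM, with 0 higher at any of these stages. WOX5 had 86 reads in hag1 and 377 in Col on CIM, a ratio of -2.05 (-2.40 to -1.71). PLT3 was inside 2-fold on CIM, with 397 reads in hag1 and 486 in Col. JKD was already low there, at 65 reads in hag1 and 320 in Col. For WOX5 the DESeq2 Wald test of the stage term gave an adjusted p = 0.0335 at a log2 difference of -4.18 (SE 1.02), whereas the edgeR test gave an adjusted p = 1. WOX5 was also among the loci picked for their ratios at 2 days on SIM, which enter that term, so the test is no independent check.

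**Figure D2:**
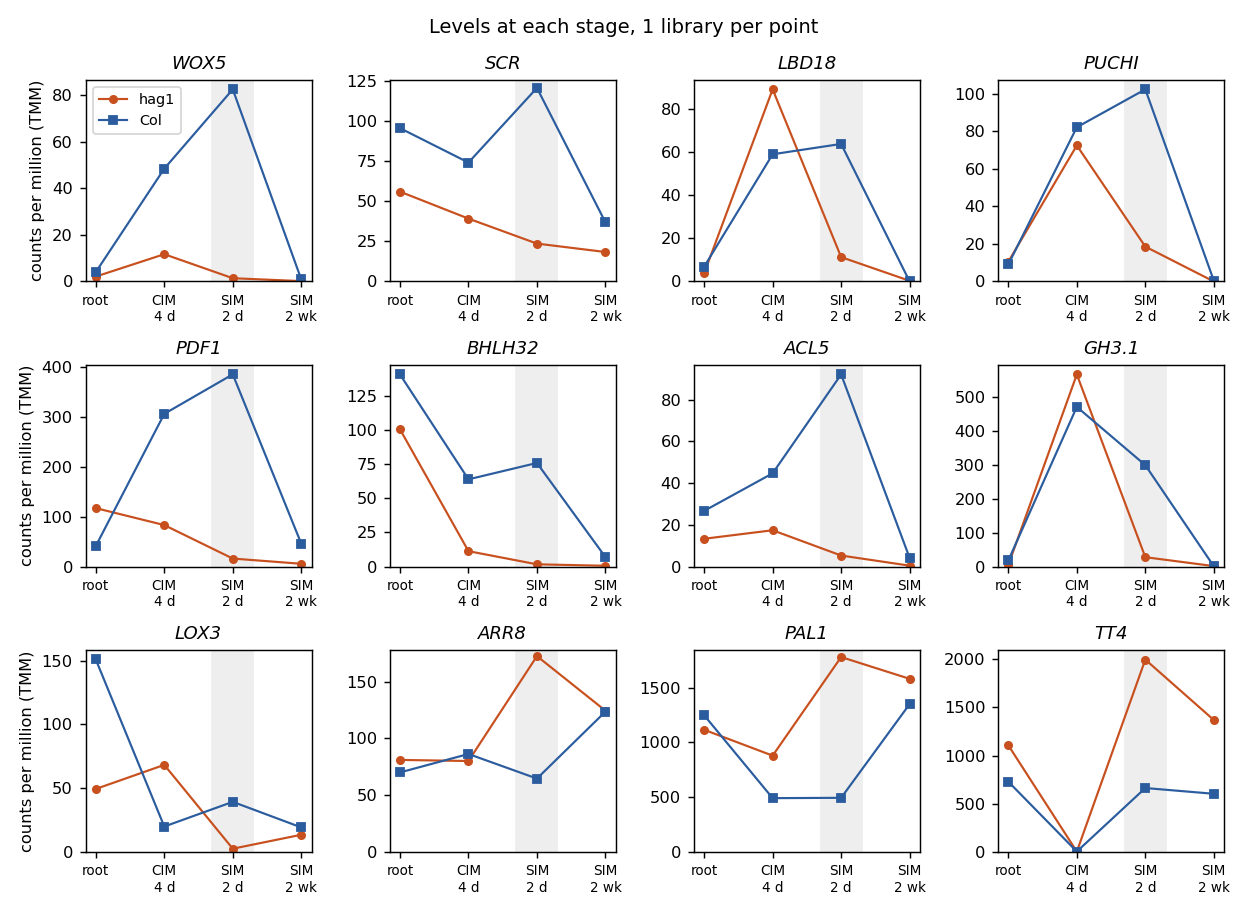
Levels of 12 genes in TMM-scaled CPM at the 4 stages, in order of culture, with 1 library per point, hag1 in orange circles and Col in blue squares, and the grey band marking 2 days on SIM. WOX5, PUCHI, PDF1 and ACL5 peak in Col at 2 days on SIM and are lower in hag1 there, and PAL1, TT4 and ARR8 are higher in hag1 at that stage.

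Regulators of lateral root initiation and callus formation were in part lower in hag1. Of 11 members 6 had at least 50 reads, 4 fell and 0 were higher, with a median of -1.88. LBD16 and LBD18, which act below auxin response factors in lateral root founder cells, had 81 and 81 reads in hag1 against 437 and 519 in Col. Their ratios were -2.25 (-2.61 to -1.90) and -2.50 (-2.85 to -2.16). PUCHI, an AP2 factor of early primordia, had 133 reads in hag1 and 832 in Col (-2.46, interval -2.74 to -2.20). PLT7, a further PLETHORA gene needed for regeneration, had 303 and 998 reads in hag1 and Col (-1.54).

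The 2 members that stayed inside 2-fold were ARF19 and PLT5. ARF19, the auxin response factor that activates LBD16, had 1240 reads in hag1 and 1482 in Col, a ratio of -0.07 (-0.18 to 0.03). PLT5 ran the other way, with 650 reads in hag1 and 423 in Col (0.80, interval 0.62 to 0.98). On CIM, 2 days earlier, LBD18 had 656 reads in hag1 and 460 in Col, PUCHI 533 and 640, and LBD16 319 and 398, all inside 2-fold. PLT7 was already lower there, at 347 reads in hag1 and 855 in Col. The list as a whole had 1 of 6 members lower on CIM, with a median of -0.09.

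**Figure D3:**
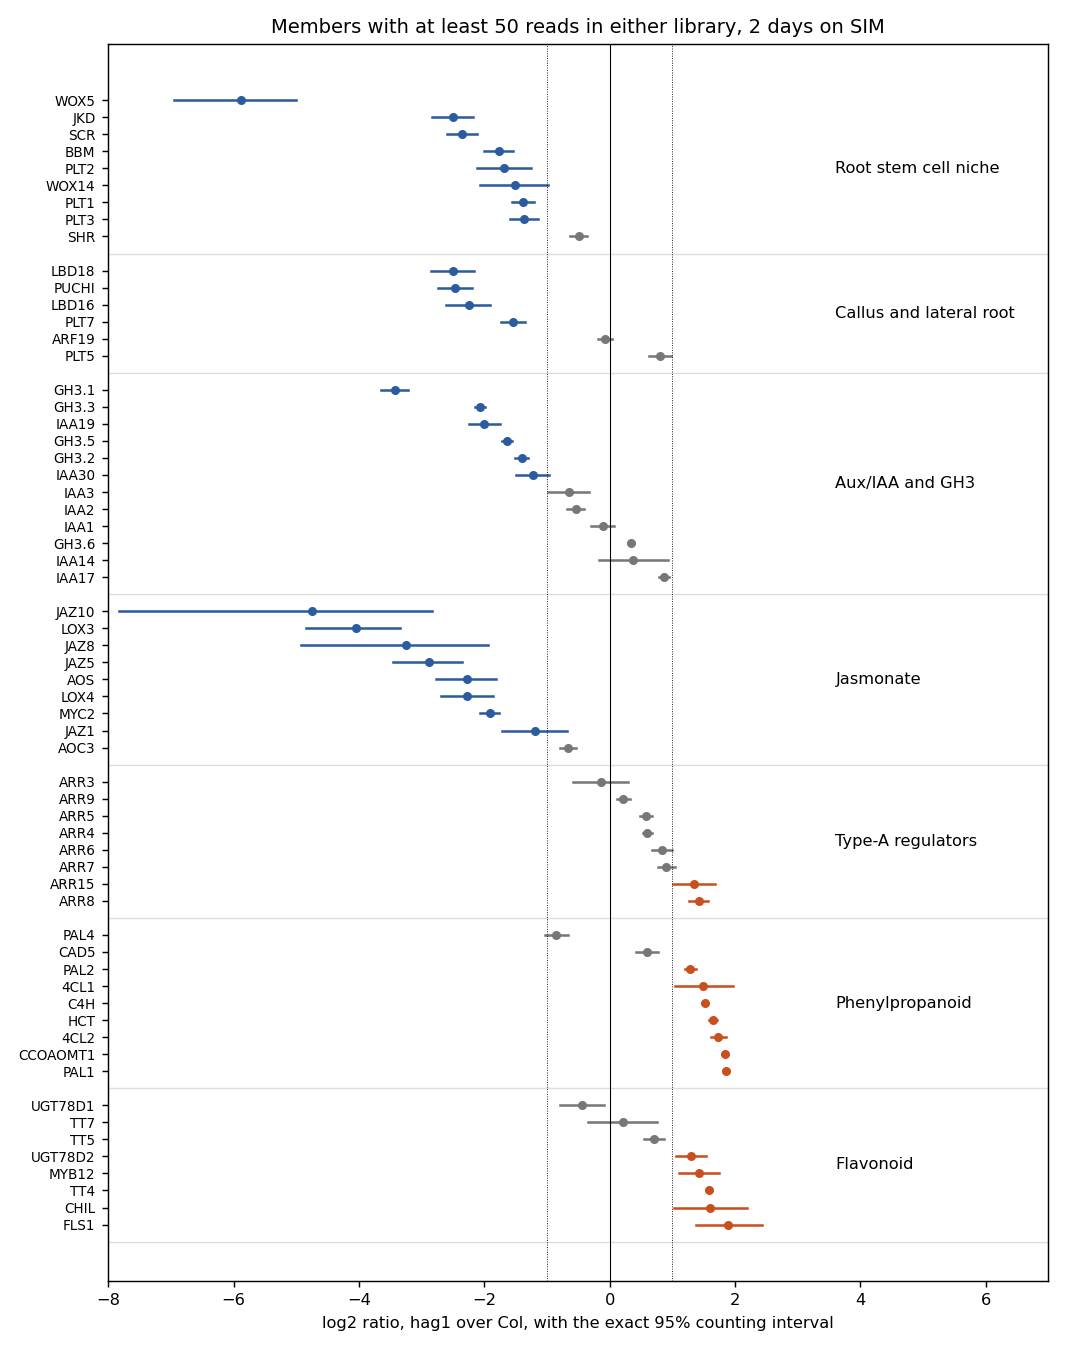
Log2 ratio of hag1 over Col for members of 7 gene lists with at least 50 reads in either library, of which all but 1 phenylpropanoid gene are drawn, with horizontal bars for the exact 95% counting interval. Orange members are called higher, blue lower and grey neither, and dotted lines mark 2-fold. Root niche and jasmonate members sit left of zero throughout, and most phenylpropanoid and flavonoid members lie to the right.

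BHLH32 and BUD2, known from vascular development, were among the 15 most extreme lower loci, and ACL5, which acts beside BUD2, fell too. BHLH32, known as TARGET OF MONOPTEROS 5 (AT3G25710, chr3:9369519-9371394, forward strand), a bHLH factor that drives the divisions of early vascular tissue, had 12 reads in hag1 and 616 in Col, a ratio of -5.50 (-6.46 to -4.68). Its partner complex is known to switch on cytokinin synthesis and the thermospermine pathway, which restrains xylem formation. ACL5 (AT5G19530, chr5:6588958-6591211, reverse strand), the thermospermine synthase, had 38 reads in hag1 and 748 in Col, at -4.12 (-4.63 to -3.65), and is a locus with 2 listed models. BUD2 (AT5G18930, chr5:6311725-6313323, reverse strand), the adenosylmethionine decarboxylase SAMDC4 that supplies that reaction, had 5 and 199 reads in hag1 and Col, at -5.13 (-6.77 to -3.89).

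The same 3 genes were closer to Col in roots. BHLH32 had 716 reads in hag1 and 943 in Col roots, ACL5 95 and 179, and BUD2 23 and 32. On CIM the reads were 83 in hag1 and 497 in Col for BHLH32, 128 and 348 for ACL5, and 18 and 155 for BUD2. All 3 were thus called lower before the transfer to SIM.

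Other genes of xylem cells followed with smaller ratios. Of 13 members of the xylem list, with ACL5 counted among them, 7 had at least 50 reads. Of these 5 fell and 0 were higher, at a median of -1.22. The list summed to 54.3 CPM (TMM-scaled counts per 1e+06 reads) in hag1 and 210 CPM in Col. ACL5 alone held 5.31 CPM of the sum in hag1 and 92.1 CPM in Col. XCP2, a protease of dying vessel cells, had 85 reads in hag1 and 335 in Col (-1.80). The laccase genes LAC4 and LAC17, which polymerise lignin, had 31 and 41 reads in hag1 against 85 and 113 in Col. The secondary wall cellulose synthases IRX3, IRX1 and CESA4 stood at -1.06, -0.96 and -0.70. IRX1 passed 2-fold with scaling to total unique reads, at -1.06. The vessel switch genes VND6 and VND7 were near the limit of detection, with 5 and 3 reads in hag1 and 21 and 20 in Col.

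Phloem genes did not move together. Of 11 members 6 had enough reads, and 2 rose and 3 fell, at a median of -0.69. SUC2, the sucrose loader of companion cells, had 2403 reads in hag1 and 957 in Col (1.51, interval 1.4 to 1.62), and PP2-A1, a phloem lectin of companion cells, 166 and 67 (1.49). The sieve element genes SEOR1, SEOR2 and CALS7 had 23, 11 and 29 reads in hag1 against 96, 55 and 139 in Col, with ratios of -1.88, -2.14 and -2.08. OPS, an early sieve element regulator, stayed inside 2-fold, with 2652 reads in hag1 and 2250 in Col.

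Epidermal genes were lower. PDF1 (AT2G42840, chr2:17826116-17827536, reverse strand), a cell wall protein of the outermost meristem layer, had 115 reads in hag1 and 3122 in Col, at -4.58 (-4.86 to -4.31), or 13.3 RPKM and 340 RPKM. FDH, a fatty acid elongase of the epidermis, had 830 and 2259 reads in hag1 and Col (-1.26), and the receptor kinase gene ACR4 111 and 324 (-1.36). PDF2, a homeobox regulator of PDF1, had 103 and 153 (-0.39), and ATML1, its close relative, had too few reads, 3 in hag1 and 10 in Col. Of 8 members 4 had enough reads and 3 fell, with 0 higher. PDF1 was lower on CIM too, with 610 reads in hag1 and 2377 in Col, and after 2 weeks on SIM, with 38 and 310. In roots it was higher, with 833 reads in hag1 and 275 in Col.

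Further genes of cuticle and wall belonged to those with the smallest unadjusted p for the stage term. CER3, of wax synthesis, had 1800 reads in hag1 and 6698 in Col (-1.71), and PEL3, an acyltransferase of the cuticle, 177 and 1369 (-2.77). On CIM CER3 had 2643 reads in hag1 and 2994 in Col, and PEL3 375 and 591. The expansin-like gene EXLA1 had 275 reads in hag1 and 2551 in Col, at -3.03 (-3.22 to -2.85), while in roots, on CIM and after 2 weeks on SIM it stayed inside 2-fold, with 1573 and 1798, 560 and 779, and 750 and 720 reads in hag1 and Col. EXLA1 had the smallest p, with a DESeq2 log2 difference of -2.81 (SE 0.47, DESeq2 adjusted p = 3.42e-05) and an edgeR unadjusted p = 2.47e-04. For CER3 and PEL3 DESeq2 gave an adjusted p = 0.0433 each.

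Auxin-induced genes of the GH3 and Aux/IAA families were lower or near Col. GH3 enzymes attach amino acids to auxin and so lower its free level, and Aux/IAA proteins repress auxin response; auxin induces both families. Of 16 members 12 had at least 50 reads, 6 fell and 0 were higher, at a median of -0.93. GH3.3 (AT2G23170, chr2:9863855-9866562, reverse strand) had 1477 reads in hag1 and 7005 in Col, at -2.06 (-2.15 to -1.98). GH3.1 (AT2G14960, chr2:6451372-6453670, reverse strand) had 199 and 2433 in hag1 and Col, at -3.43 (-3.65 to -3.22). GH3.5 had 1627 and 5739 (-1.64), and GH3.2 1062 and 3192 (-1.41).

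Among the repressors IAA19 had 166 reads in hag1 and 753 in Col (-2.0), and IAA30 had 176 and 468 (-1.23). The families were not uniform. GH3.6 had 6804 reads in hag1 and 6087 in Col (0.34), and IAA17 had 3097 and 1921 (0.87, interval 0.79 to 0.95), both inside 2-fold. On CIM, with auxin in the medium, GH3.3 had 25142 reads in hag1 and 23516 in Col and GH3.1 4170 and 3671. Of 15 members with enough reads on CIM, 1 was higher and 0 were lower. The stage term for GH3.3 had a DESeq2 log2 difference of -2.20 (SE 0.51, DESeq2 adjusted p = 0.0207).

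The short stretches below show the auxin response element in the members that fell, since these share a regulation by auxin. The letters TGTCTC were searched on both strands in the 250 bases upstream of the start in the deposited TAIR10 coordinates. Of the 12 members with enough reads, 7 held them, against 12.4% of 25535 nuclear loci, 16.2% of loci called lower and 13.0% of loci called higher. IAA1, at -0.11, held the letters too. Each stretch is read on the gene's strand from RefSeq's TAIR10.1 genome, whose 5 nuclear chromosomes have the TAIR10 numbering, with the element in capitals and 10 bases on each side. RefSeq places the start of these genes up to 127 bases further upstream, and the stretch of GH3.1 lies inside its transcript model.
GH3.1, 96 bases before the start, chr2:6453751-6453776, reverse strand: aaactccttcTGTCTCtctcctctct
GH3.2, 183 bases before the start, chr4:17579464-17579489, forward strand: gggtcccttaTGTCTCcattaactaa
GH3.3, 116 bases before the start, chr2:9866663-9866688, reverse strand: tcttgtccccTGTCTCggtctaacga
GH3.5, 77 bases before the start, chr4:13653522-13653547, forward strand: ttccttattgTGTCTCtactctctac
IAA30, 161 bases before the start, chr3:22995620-22995645, forward strand: ttaacaacacTGTCTCatcattccac
IAA19, 207 bases before the start, chr3:5263807-5263832, forward strand: accaaacttaTGTCTCtcatgtgacc
IAA19, 168 bases before the start, chr3:5263846-5263871, forward strand: tcagttgaccTGTCTCtgcccccact
IAA19, 151 bases before the start, chr3:5263863-5263888, forward strand: gcccccacttTGTCTCcccacacaaa
For GH3.3 the RefSeq start is the deposited one and no RefSeq gene overlaps the window, which is therefore given whole, at chr2:9866563-9866812 on the reverse strand, with the element in capitals.
GH3.3 upstream: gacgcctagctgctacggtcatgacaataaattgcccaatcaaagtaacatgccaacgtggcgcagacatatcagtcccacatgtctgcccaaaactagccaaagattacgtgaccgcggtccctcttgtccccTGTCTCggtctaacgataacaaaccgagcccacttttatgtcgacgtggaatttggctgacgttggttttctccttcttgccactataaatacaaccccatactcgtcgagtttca
IAA19 held the element at 3 places within the window, 207, 168 and 151 bases before the start, more than any other member shown.

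Auxin carriers fell in part. Of 16 members of the transport, synthesis and response factor list 9 had enough reads, 4 fell and 0 were higher, at a median of -0.45. PIN3, an efflux carrier, had 529 reads in hag1 and 1297 in Col (-1.11). LAX2, an influx carrier of vascular cells, had 62 and 693 reads in hag1 and Col, at -3.30 (-3.70 to -2.92). The influx carrier AUX1 (-0.45), the response factor ARF5 (-0.09) and the kinase gene PID (-0.05) stayed inside 2-fold. ARF5, also called MONOPTEROS and known to activate BHLH32, had 3815 reads in hag1 and 4607 in Col. The auxin synthesis genes YUC3, YUC8, YUC9 and TAA1 had at most 10 reads in hag1 and 19 in Col.

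Most type-A response regulators of cytokinin lay slightly above Col. These genes are induced by cytokinin within minutes and dampen its signal, so they serve as a readout of the hormone. Not every gene that responds to cytokinin went this way, since the cyclin gene CYCD3;2, given below, was called lower. Of 10 members 8 had enough reads, 2 rose and 0 fell, at a median of 0.72. ARR8 had 1235 reads in hag1 and 524 in Col (1.42, interval 1.27 to 1.57), and ARR15 had 243 and 109 (1.34, interval 1.01 to 1.68). The others were ARR7 at 0.90, ARR6 at 0.84, ARR4 at 0.60, ARR5 at 0.57, ARR9 at 0.22 and ARR3 at -0.14, all inside 2-fold. ARR8 was near Col at the other stages, with 588 reads in hag1 and 671 in Col on CIM and 840 and 835 after 2 weeks on SIM.

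Cytokinin breakdown and reception differed gene by gene. Of the cytokinin oxidases, CKX1 had 23 reads in hag1 and 96 in Col (-1.88), and CKX6 135 and 310 (-1.02), which lies inside 2-fold with TMM over both libraries alone (-0.99). CKX3, the most abundant, had 3534 and 3988 (0.01). Of 10 oxidase and synthase genes 5 had enough reads, 2 fell and 0 were higher, at a median of -0.64. Among receptors, phosphotransmitters, type-B regulators and cytokinin response factors 9 of 12 had enough reads, with 1 higher and 2 lower at a median of -0.67. Over all loci 5.45% were called higher and 9.66% lower. The receptor gene AHK4, with 3 listed models, had 105 reads in hag1 and 24 in Col (2.31, interval 1.66 to 3.02), and the receptor gene AHK2 had 109 and 324 (-1.39). AHK3, the third receptor, was at -0.07. The type-B regulators ARR10, ARR2 and ARR12 stood at -0.89, -0.84 and 0.64.

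Several shoot meristem regulators, among them WUS and STM, were at the edge of detection at this time. WUS, the stem cell organiser of the shoot, had 9 reads in hag1 and 1 in Col, and STM, which keeps meristem cells undifferentiated, had 1 and 1. CUC1 had 11 and 35 reads in hag1 and Col, CUC3 3 and 15, and ESR2 and FIL 0 and 0. CLV3 and YAB3 were not analysed here. Of 24 members 14 had enough reads, and 1 rose and 3 fell, at a median of -0.26. ESR1, an AP2 factor whose overexpression promotes shoot regeneration, had 114 reads in hag1 and 57 in Col (1.18, interval 0.71 to 1.67). CUC2, a boundary factor, had 219 and 144 (0.79), inside 2-fold.

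The 3 that fell were BAM3, NGA1 and KNAT1. BAM3, a receptor kinase best known from phloem, had 768 reads in hag1 and 2000 in Col (-1.20). NGA1, a B3 factor of leaf margins, had 5 and 80 (-3.82, interval -5.48 to -2.54). KNAT1, a homeobox gene of meristem boundaries, had 155 and 357 (-1.02), which lies at -1.0 with TMM over both libraries alone, just inside 2-fold. The leaf polarity factors PHB, PHV and REV stood at -0.92, 0.76 and -0.06. After 2 weeks on SIM, WUS had 13 reads in hag1 and 16 in Col and STM 15 and 29; neither reached 50 reads.

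Genes of the general phenylpropanoid pathway were higher in hag1. This pathway turns phenylalanine into the precursors of lignin and flavonoids. Of 11 members 10 had enough reads, 8 rose and 0 fell, at a median of 1.49. PAL1 (AT2G37040, chr2:15557376-15560363, reverse strand), which deaminates phenylalanine, had 12731 reads in hag1 and 4000 in Col, at 1.85 (1.80 to 1.90), and PAL2 had 3686 and 1714 (1.29). C4H (AT2G30490, chr2:12993663-12995770, reverse strand), the next enzyme, had 13123 and 5216 (1.51), and 4CL2, the coenzyme A ligase, 2545 and 867 (1.74).

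Of the members that lead toward lignin, HCT and CCOAOMT1 rose. HCT (AT5G48930, chr5:19836299-19838162, reverse strand), which opens the lignin branch, had 7362 reads in hag1 and 2675 in Col (1.64), and CCOAOMT1, a methyltransferase, 15524 and 4938 (1.83). PAL4 had 351 reads in hag1 and 718 in Col, at -0.85 (-1.04 to -0.66), and CAD5, a late dehydrogenase, 627 and 472 (0.59). On CIM 0 of the 10 were called higher, and PAL1 had 6451 reads in hag1 and 3810 in Col. After 2 weeks on SIM 0 were higher and 1, PAL4, was lower. The xylem genes above, which mark the cells that deposit most lignin, were lower at 2 days on SIM. On CIM 8 of 8 xylem members with enough reads were already lower, at a median of -1.36. After 2 weeks on SIM 5 of 6 were lower (median -1.96), and in roots 1 of 11 (-0.46). A link between the xylem and phenylpropanoid lists was not tested.

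In the flavonoid pathway 8 of 12 members had enough reads, 5 rose and 0 fell, at a median of 1.35. TT4 (AT5G13930, chr5:4488688-4490264, forward strand), the chalcone synthase that opens the pathway, had 14296 reads in hag1 and 5378 in Col, at 1.59 (1.55 to 1.64). MYB12, its activator, had 283 and 120 (1.42, interval 1.11 to 1.74). CHIL, a helper of chalcone isomerase, had 96 and 36 (1.60), FLS1, the flavonol synthase, 134 and 41 (1.89), and the glucosyltransferase gene UGT78D2 475 and 219 (1.3). TT5, the chalcone isomerase, had 834 and 580 (0.71), TT7 59 and 58 (0.21), and UGT78D1 115 and 177 (-0.44). MYB11, a relative of MYB12, ran the other way at low counts, with 2 reads in hag1 and 47 in Col.

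On CIM most of these transcripts were scarce in both genotypes, with 10 reads in hag1 and 16 in Col for TT4 and 0 and 1 for FLS1. Only 1 member of the list had enough reads there, UGT78D2, with 71 in hag1 and 75 in Col. In roots the flavonoid list already had 3 of 8 members higher in hag1, and TT4 stood at 7881 reads in hag1 and 4882 in Col. After 2 weeks on SIM 2 of 8 were higher and 0 lower, and TT4 stood at 1369 CPM in hag1 and 602 CPM in Col. The anthocyanin branch stayed off: its 12 members, with DFR and LDOX at 0 reads in both libraries, summed to 39 reads in hag1 and 71 in Col, and 0 of 12 had enough reads. MYB111 and the anthocyanin activator TT8 had 0 reads in either library.

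The AC element, letters ACCTACC, is a site through which MYB factors are known to act on phenylpropanoid genes. It was searched on both strands of the same 250-base windows. It stood in 3 of 10 phenylpropanoid and 2 of 8 flavonoid members with enough reads, against 1.23% of 25535 nuclear loci, 2.95% of loci called higher and 1.25% of loci called lower. The stretches of all 5 holders are shown, of which TT5 was inside 2-fold. Capitals mark the element, read on the gene's strand, and HCT holds it on the opposite strand. RefSeq's TAIR10.1 annotation puts the starts of these genes 73 to 392 bases further upstream, so the stretches lie inside its transcript models.
PAL1, 59 bases before the start, chr2:15560406-15560432, reverse strand: ctatacgcttACCTACCaacaaacact
C4H, 196 bases before the start, chr2:12995950-12995976, reverse strand: gtctttctttACCTACCaccatcaaca
HCT, 62 bases before the start, chr5:19838208-19838234, reverse strand: gtcgtggggcGGTAGGTgaaggattac
TT4, 70 bases before the start, chr5:4488608-4488634, forward strand: cgtccatctaACCTACCacactctcat
TT5, 46 bases before the start, chr3:20431500-20431526, reverse strand: aactattgctACCTACCcttctctctt
The other 7 phenylpropanoid members, among them 4CL2 and CCOAOMT1 with like ratios, have no such letters in this window.

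Genes of jasmonate synthesis and signalling were lower in hag1. Jasmonate is the wound hormone: LOX and AOS enzymes make it from linolenic acid, MYC2 drives its response, and JAZ proteins, which it induces, repress MYC2. Of 14 members 9 had enough reads, 8 fell and 0 were higher, at a median of -2.23. For synthesis, LOX3 had 17 reads in hag1 and 318 in Col (-4.04, interval -4.84 to -3.34), LOX4 had 59 and 323 (-2.27), and AOS had 45 and 247 (-2.27). AOC3, a later enzyme, stayed inside 2-fold with 772 and 1394 (-0.67).

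For signalling, MYC2 had 442 reads in hag1 and 1885 in Col (-1.91, interval -2.06 to -1.76). The repressor genes JAZ5, JAZ8 and JAZ10 had 33, 5 and 2 reads in hag1 against 277, 54 and 61 in Col, with ratios of -2.89, -3.25 and -4.75, the last with an interval from -7.83 to -2.83. JAZ1 had 45 and 116 (-1.18, interval -1.71 to -0.68). ERF109, a factor that wounding and jasmonate induce, had 35 reads in hag1 and 387 in Col (-3.28). BHLH92, among the 15 lowest ratios of all loci, had 1 and 177 (-7.29, interval -12.60 to -4.79).

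The direction was the opposite on CIM. There 6 of 9 jasmonate members were higher in hag1 and 0 were lower, at a median of 1.04. LOX3 had 501 reads in hag1 and 154 in Col, LOX4 1259 and 258, JAZ5 534 and 282, and ERF109 780 and 284. In roots 6 of 12 were lower and 1 higher, and after 2 weeks on SIM 3 of 7 were lower. Of the members, JAZ5 passed the DESeq2 test of the stage term (log2 difference -3.17, SE 0.78, DESeq2 adjusted p = 0.0391), and none passed edgeR.

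The G-box, CACGTG, is the site MYC2 binds. It was found in the 250-base windows of 5 of the 9 jasmonate members with enough reads, against 7.88% of 25535 nuclear loci, 9.64% of loci called lower and 8.98% of loci called higher. The stretches of the 4 members that fell are shown with the G-box in capitals. RefSeq starts these genes 140 to 419 bases further upstream, and the stretches of JAZ1 and MYC2 lie inside its transcript models. The 3 motifs were counted separately, so a window can hold more than 1 of them.
AOS, 206 bases before the start, chr5:17099586-17099611, reverse strand: agagtcaaagCACGTGgctaaatgaa
JAZ1, 65 bases before the start, chr1:6622019-6622044, forward strand: caaaataaaaCACGTGttttttatac
JAZ8, 150 bases before the start, chr1:10596332-10596357, forward strand: aaacattttcCACGTGagagaattga
MYC2, 240 bases before the start, chr1:11801213-11801238, reverse strand: gcgtgtgataCACGTGcgaccaaaca
The remaining holder, AOC3, was the member inside 2-fold.

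Salicylate and general defence genes went several ways. Of 14 members 11 had enough reads, 3 rose and 1 fell, at a median of -0.06. The camalexin synthesis gene PAD3 had 3487 reads in hag1 and 1604 in Col (1.3), the indole glucosinolate hydroxylase gene CYP81F2 604 and 204 (1.75), and the receptor kinase gene FRK1 330 and 103 (1.86). The glucanase gene PR2 had 41 and 120 (-1.37). The salicylate regulators EDS1, EDS5 and WRKY70 stood at -0.06, -0.06 and -0.15. Wound-induced callus regulators had 6 of 7 members with enough reads, with 1 lower, ERF109, and 0 higher at a median of -0.67. WIND1, which triggers callus at wounds, had 3153 reads in hag1 and 3100 in Col (0.21).

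**Figure D4:**
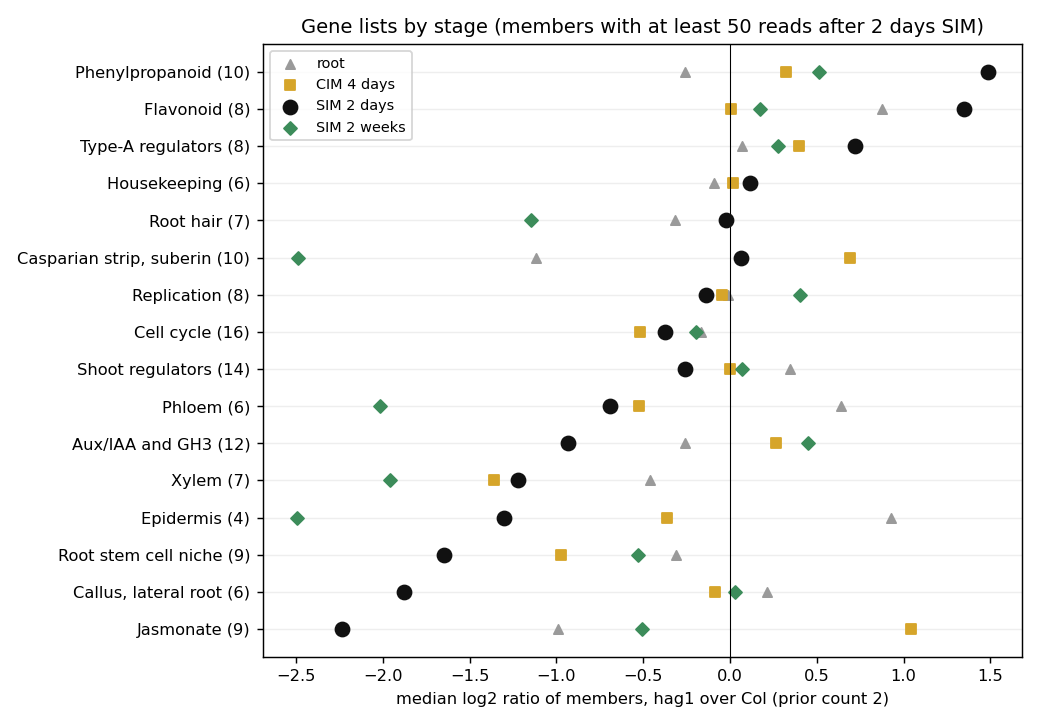
Median log2 ratio of hag1 over Col for 16 gene lists at each stage, with the number of members having at least 50 reads at 2 days on SIM in brackets; large black circles are 2 days on SIM, and each other symbol is a stage. At 2 days on SIM medians range from -2.23 for jasmonate to 1.49 for phenylpropanoid genes, and the jasmonate list lies on the other side of zero on CIM. For each stage only members with at least 50 reads in either library of that stage enter the median.

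Chromatin genes other than HAG1 mostly stayed near Col. Of 17 acetyltransferases and HAG1 partners 11 had enough reads, with HAG1 lower, 1 higher and a median of -0.02. The higher gene was HAC2 (AT1G67220, chr1:25145587-25150558, forward strand), an acetyltransferase of the CBP family, with 98 reads in hag1 and 2 in Col, a ratio of 5.80 (3.91 to 8.86). HAG2, HAG3, HAM1 and HAF1 had ratios between -0.23 and 0.02. Of 17 Polycomb, DNA methylation and deacetylase genes 14 had enough reads, with 1 lower and 0 higher. It was ROS1, a DNA demethylase, with 317 reads in hag1 and 1087 in Col (-1.60). The deacetylase HDA6 (0.19), the Polycomb methyltransferases CLF (-0.15) and SWN (-0.24) and the methyltransferase MET1 (-0.05) lay inside 2-fold.

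Cell division and replication were close to Col. Of 20 cell cycle genes 16 had enough reads, 1 rose and 2 fell, at a median of -0.37. These counts lie near the shares over all loci, 5.45% higher and 9.66% lower. CYCD3;2, a cyclin that responds to cytokinin, had 105 reads in hag1 and 489 in Col (-2.04), and CYCD1;1 had 25 and 67 (-1.24). The gene SIAMESE (AT5G04470), an inhibitor of cyclin-dependent kinases, had 237 and 117 (1.2). CYCB1;1, a marker of dividing cells, had 241 and 243 (0.17). Of 13 replication genes 8 had enough reads and 0 were called in either direction, at a median of -0.14. Of 46 histone genes 35 had enough reads, 2 fell and 0 rose, at a median of -0.38, and the linker histone gene HIS1-3 had the largest change, with 9 reads in hag1 and 86 in Col. Housekeeping genes had 0 of 6 called and a median of 0.11, and ribosomal protein genes 2 higher and 0 lower of 63, with a median of 0.12.

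Markers of differentiated cells gave the following. Of 14 root hair genes 7 had enough reads, with 1 higher, the regulator RHD6 (124 reads in hag1 and 62 in Col), and 0 lower, at a median of -0.02. Their level summed to 122 CPM in hag1 and 113 CPM in Col. Of 16 endodermis genes 10 had enough reads, with 0 higher and 1 lower, at a median of 0.06 (-0.04 with total unique reads as the scale) and a sum of 624 CPM in hag1 and 634 CPM in Col. The lower gene was CASP1, the Casparian strip protein, with 11 reads in hag1 and 86 in Col (-2.78), while the suberin genes CYP86A1 (0.10) and GPAT5 (0.33) were inside 2-fold. The strip genes CASP2 and PER64 had 9 and 10 reads in hag1 against 39 and 47 in Col. Of 26 photosynthesis genes 10 had enough reads, with 0 higher and 2 lower, LHCB4.1 and PSAF, at a median of -0.10. Stomatal genes summed to 1 read in hag1 and 3 in Col over 6 members, of which SPCH, FAMA, EPF1 and EPF2 had 0 reads in hag1.

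The 15 loci with the most extreme lower ratios, ranked by the bound of the interval nearest to zero, also held genes outside the lists. AT4G31910, a brassinosteroid-related acyltransferase named BAT1 in RefSeq (chr4:15441082-15443900, forward strand), had 10 reads in hag1 and 1038 in Col, at -6.52 (-7.58 to -5.63). TEL2, an RNA-binding protein gene, had 0 reads in hag1 and 111 in Col, which is at least 32.6-fold lower against a floor of 3 reads. XTH20, an enzyme that remodels wall xyloglucan, had 14 and 610 (-5.26), and the aquaporin gene PIP2;8 had 5 and 187 (-5.04). The phosphate starvation transcripts AT4 (AT5G03545) and AT1G73010 had 22 and 42 reads in hag1 against 732 and 1328 in Col. The other members were WOX5, BHLH92, BHLH32, PDF1 and BUD2, described above, and AT1G31710, AT5G24240, AT5G65500 and BGLU24.

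These 15 loci were chosen for their values at 2 days on SIM, so their counts at the other stages are given. At 50 reads and 2-fold, 6 of the 15 were called lower in roots, 12 on CIM and 6 after 2 weeks on SIM. By sign alone 14, 13 and 15 were lower there. BHLH92 was higher on CIM, with 196 reads in hag1 and 29 in Col.

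The 15 most extreme higher loci had 101 to 970 reads in hag1 and 1 to 77 in Col. AGO9, an Argonaute best known from ovules (AT5G21150, chr5:7192239-7198324, forward strand), had 330 reads in hag1 and 6 in Col, at 5.96 (4.83 to 7.42). CESA9, a cellulose synthase of seed coats, had 113 and 1 (7.0, interval 4.50 to 12.32), and CEP1, a protease of cell death, 885 and 37 (4.76, interval 4.29 to 5.28). ARI13, a RING protein gene, had 379 and 11, ASML2, an activator of sugar-responsive genes, 595 and 42, and the Rcd1-like gene AT2G32550 970 and 77. The rest were the F-box genes AT1G26515 and AT4G22390, the acidic ribosomal protein genes AT5G40040 and AT3G28500, the transposable element gene AT1G64240, the kinase gene AT5G16900, and AT2G41470, AT1G02770 and AT2G43960. At the other stages 5 of the 15 were called higher in roots, 14 on CIM and 12 after 2 weeks on SIM.

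ASML2 and CEP1 passed the DESeq2 test of the stage term, while edgeR called neither. Both were picked for their ratios at 2 days on SIM, which enter that term, so the test is no independent check. ASML2 had 67 reads in hag1 and 68 in Col on CIM, and its stage term was 3.67 (SE 0.94, DESeq2 adjusted p = 0.0489). CEP1 had 465 and 199 there, with a term of 3.24 (SE 0.73, DESeq2 adjusted p = 0.0157). Other genes with a positive term were GASA1, a gibberellin-regulated peptide gene, with 89 reads in hag1 and 15 in Col, RNS1, a ribonuclease gene, with 205 and 42, UGT74F2, a salicylate glucosyltransferase gene, with 160 and 16, the bHLH gene AT1G10585 with 334 and 42, and ATCAD4 with 1388 and 759. GPT2, a plastid sugar phosphate carrier gene, was also among them, at low counts, 17 reads in hag1 and 3 in Col. ATCAD4 is inside 2-fold with total unique reads as the scale (0.95).

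Genes with a negative term in DESeq2, besides EXLA1, CER3, PEL3, WOX5, GH3.3 and JAZ5, were the trehalose phosphate synthase gene TPS8 with 314 reads in hag1 and 1576 in Col, BT1, a BTB and TAZ domain gene, with 32 and 609, the protease gene AT1G66180 with 45 and 585, and AT1G26730 with 471 and 1822. LTI78, a cold and drought marker, had 21 and 91, AT1G56660 1748 and 3954, and the cellulase gene CEL3 1671 and 2985, the last inside 2-fold at -0.65. AT5G24570, with 100 reads in hag1 and 16 in Col, had the fourth smallest edgeR p among positive terms (unadjusted p = 7.71e-04) and no adjusted p in DESeq2.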

How the data were processed

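The data are RNA-seq tables of total RNA, with libraries made by BGI with Illumina protocols per the labels. Per the file headers the authors deposited, for every transcript model, the unscaled count of its unique reads, its RPKM and the percent of the model covered by reads. The submitters' processing notes name TAIR10, and which aligner and counter were run, and whether strand was used, is not stated there or in the labels. Depth was 6986945 unique reads in hag1 and 7395661 in Col, and 6958103 to 7543989 over the 8 libraries, of which 3.14 to 3.32% fell on loci with several models in the compared pair. A locus without reads is bounded by 3 reads, 0.429 CPM in hag1 and 0.406 CPM in Col.

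Counts were summed per locus and scaled with TMM over the 8 libraries (edgeR 4.0.16, R 4.3.3). Ratios of hag1 to Col carry exact 95% Clopper-Pearson intervals (scipy 1.17.1), and intervals and floors cover counting error only, since reads are not independent molecules. Calls needed 2-fold and 50 reads. List medians used a prior count of 2, so they understate the change of low genes. The stage term was fitted to all 8 libraries with stage and genotype as further terms after filterByExpr, leaving 2 residual degrees of freedom. The p-values were adjusted by Benjamini-Hochberg, with DESeq2 1.42.0 and limma 3.58.1 as alternatives. These p-values and the fitted coefficient of variation, 0.266, rest on how the hag1 effect varied among roots, CIM and 2 weeks on SIM. That variation mixes true differences between stages with culture and technical scatter, and without replicates these cannot be told apart. The labels do not tell whether cultures were separate. Both calculations were checked on simulated data, in which edgeR made 3 false calls.

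The members and the 29 gene lists (390 members) were chosen with earlier results of these data known. A further 8 families came from the deposited gene descriptions. Named genes are the 15 loci per direction with the most extreme interval bound at 100 reads or more, the 4 per direction with the smallest edgeR p, up to 6 per list by size of ratio, and fixed genes (HAG1, HAC2, the niche, shoot, type-A and flavonoid lists). Further list members, genes called by DESeq2 alone, BUD2, and the motifs searched were chosen after the values were seen. A few list members are counted but not reported here by name. Symbols come from RefSeq's TAIR10.1 annotation, which matched 25463 of 25686 loci. Paralogs with near-identical sequence and overlapping genes could not be separated.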

Additional observations from a re-analysis of the deposited data

Results flagged for a closer look

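With 1 library per group no sample can be tested against its group. The results below are ratios whose counting interval lay wholly beyond 2-fold after 2 days on SIM and wholly beyond 2-fold in the other direction at another stage, among the named genes and list members. These reversals between stages were not tested one by one, and edgeR called 0 genes for the stage term.

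Of them, 4 members of the jasmonate and wound-induced callus lists turned between CIM and SIM. LOX3 had a log2 ratio of -4.04 after 2 days on SIM and 1.78 on CIM. LOX4 had -2.27 and 2.37, JAZ8 -3.25 and 2.44, and ERF109 -3.28 and 1.54 at the same stages. Outside these lists, BHLH92 had -7.29 after 2 days on SIM, with 1 read in hag1, and 2.84 on CIM. LTI78, a cold and drought marker, had -1.93 and 2.19.

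Against roots, PDF1 stood at -4.58 after 2 days on SIM and 1.51 in roots, against -1.88 on CIM and -3.03 after 2 weeks on SIM. SEOR1 stood at -1.88 after 2 days on SIM and 1.36 in roots. MYB122, a regulator of indole glucosinolates, had 2.02 after 2 days on SIM, with 50 reads in hag1 and 14 in Col, and -2.09 in roots. Against 2 weeks on SIM, the companion cell genes SUC2 and PP2-A1 stood at 1.51 and 1.49 after 2 days and at -1.44 and -2.62 after 2 weeks. GASA1 had 2.75 after 2 days, with 89 reads in hag1 and 15 in Col, and -1.94 after 2 weeks.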

How the results depend on the processing

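The counts of 679 higher and 1205 lower loci depend mainly on the threshold. With at least 200 reads they were 338 and 558, with the whole interval beyond 2-fold 402 and 733, and at 4-fold 166 and 404. Other scalings, a minimum of 20 reads, loci with 1 model and deposited RPKM kept both counts within 1.5 times. Scaling to total unique reads moved the phenylpropanoid median to 1.39, since it shifts all log2 ratios down by 0.10. It also moved the endodermis median to -0.04, against 0.06 with TMM, and the other list medians kept their sign under the scalings tried. For the stage term DESeq2 called 21 genes where edgeR called 0, and edgeR also called 0 under the other filters and scaling and without both libraries of any other stage, with up to 986 at an unadjusted p under 0.05. Of 828 ratios of 276 genes under 3 other scalings, 785 stayed inside their counting interval. No gene called at 2-fold changed sign, which such small shifts could not bring about. Ratios near zero could change sign, such as HAF1 at 0.02 with TMM and -0.08 with total unique reads. Total unique reads brought CYCA2;3, AT1G56660, PHB, ANAC071 and IRX1 past 2-fold and ATCAD4 inside it. No paired analysis was possible because each group has 1 library and no replicate numbers. Leaving out a replicate was not possible for the same reason. Depth limits genes such as WUS and STM, with under 10 reads in each library.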

Other observations

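Of the 8 gene families taken from the deposited descriptions, the 6 below are those with members called in both directions. Over all loci with enough reads 5.45% were called higher and 9.66% lower. The family counts were not tested against these shares. Class III peroxidases, which cross-link cell walls, had 33 of 67 members with at least 50 reads, of which 8 rose and 5 fell, at a median of 0.38. PRXCB was the most abundant of them, with 41889 reads in hag1 and 9704 in Col (2.29, interval 2.26 to 2.32), and PRX52 had 1135 and 425. AT4G08780 ran the other way, with 43 and 445. PRXCB alone held 41889 of the family's 96742 reads in hag1 and 9704 of 60183 in Col. UDP-glycosyltransferases had 9 higher and 8 lower of 66 with enough reads. Glutathione S-transferases had 3 higher and 1 lower of 29, with GSTU11 at 2367 reads in hag1 and 1057 in Col. WRKY factors had 6 higher and 3 lower of 45, among them WRKY40 with 117 and 787 and WRKY42 with 77 and 11. Heat shock genes had 6 higher and 3 lower of 36. The small heat shock gene HSP17.4 had 364 and 91, and the chaperone gene HSP101 541 and 1786. Transposable element genes had 12 higher and 6 lower of 72, with AT1G64240 at 167 and 1 and AT1G47860 at 46 and 380.

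Nutrient and specialised metabolism lists had few members with enough reads at this stage. Iron and nitrogen genes had 1 higher, the ammonium transporter gene AMT1;1 (344 reads in hag1 and 163 in Col), and 1 lower, NAS2 (23 and 65), of 7 with enough reads. Root triterpene genes had 0 of 4 called, at a median of 0.43. Of 6 glucosinolate genes with enough reads 1 was higher, MYB122, and 2 were lower. CYP79B3, an enzyme of the indole branch, had 64 reads in hag1 and 870 in Col (-3.58, interval -3.97 to -3.22), while its close relative CYP79B2 had 2561 and 2086 (0.48).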
